A study of Rattus norvegicus with 16 samples.

Results

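Cell cycle and DNA replication genes were read on 16 microarrays of rat cornea. The list holds 47 gene symbols in 6 roles: DNA replication and nucleotide supply, G1 cyclins and their kinases, mitotic cyclins with their kinases and phosphatase, the spindle checkpoint with mitotic exit, the mitotic machinery with the proliferation marker *Mki67*, and inhibitors of cyclin-dependent kinases (CDKs). Members were all probe sets that the array's probe annotation pairs with one of these symbols and with no other gene. Of the 47 symbols, 45 were measured, out of 14217 genes on the array. The annotation pairs no probe set with *Cdc6*, which loads the replicative helicase, and both probe sets of *Rrm2*, the small subunit of ribonucleotide reductase, carry a further gene symbol and were assigned to no gene. The 45 genes had 64 probe sets, and each gene was read from its brightest one.

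All corneas came from male Wistar rats of 12 to 16 weeks, with 4 corneas per group and 1 array per cornea. Naïve corneas carried no suture and received no drops. In the other 12 corneas 2 sutures, 1.5 mm inside the limbus on the temporal side, provoked inflammation that precedes vessel ingrowth, and eyedrops followed 4 times a day over 2 days, 8 in all. The drops held normal goat IgG (the sham treatment, which some labels call an anti-IgG antibody), a goat antibody against rat Vegfa, or dexamethasone at 1 mg/ml. Both antibodies stand at 20 mg/ml in the labels, whereas the methods give that number in µg/ml. The labels describe the tissue as cornea without scleral rim and the methods as the sector between sutures and temporal limbus, so whole-tissue RNA of epithelium, stroma, endothelium and invading cells was measured. In such RNA, a change in the number of cells of a type and a change in RNA per cell cannot be told apart. Arrays are listed below in the order naïve 1, 2, 3 and 4, IgG F17, F19, F22 and F23, anti-*Vegf* F1x, F2, F6 and F7, and dexamethasone F25, F26, F27 and F30, which are the sample codes of the labels. These codes run in blocks by group, and the labels name no batch.

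A dividing cell passes from G1, where D-type and E-type cyclins switch on their kinases, into S phase, where the Mcm helicase opens DNA at origins and *Pcna* clamps the polymerases to it. Cyclin A and cyclin B with *Cdk1* then drive entry into mitosis, the spindle checkpoint holds chromosomes until all are attached, and the ubiquitin ligase that *Cdc20* activates ends mitosis by having cyclin B and other proteins destroyed. Genes for replication are switched on by E2F factors and genes for mitosis by a later wave in which *Foxm1* and B-Myb take part. In the cornea, basal epithelial cells renew the epithelium throughout life and limbal stem cells feed them, while corneal endothelial cells of the adult are held in G1, with CDK inhibitors such as the product of *Cdkn1b* known to contribute.

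Signals are log2 values per probe set as deposited, so a difference of 1 is a 2-fold change. In comparisons with naïve corneas a gene was called where it changed at least 1.5-fold and its adjusted p lay under 0.05 (limma, Benjamini-Hochberg over 31042 probe sets). Comparisons of treatments used the same limit on p and none on fold. Some arrays stood apart in these genes within their own group. Naïve 1 and 2 both lay above naïve 3 and 4 in 17 of 22 mitotic members (77.3%), a pattern that 24.6% of all genes showed. F17 was the lowest IgG array in 19 of these 22 members and F2 the lowest anti-*Vegf* array in 18. F27 was the highest dexamethasone array in 17 and F30 the lowest in 14. The bacterial poly-A RNAs that are added before labelling read 4.93 to 5.16 on naïve and 5.03 to 5.40 on dexamethasone arrays, but 6.80 to 7.44 on IgG and 6.75 to 7.02 on anti-*Vegf* arrays. Dexamethasone and IgG arrays did not overlap in these signals, so poly-A level and treatment cannot be told apart between them. The same holds for dexamethasone against anti-*Vegf*, and for IgG and anti-*Vegf* against naïve. The part of the poly-A signals in the results was not tested. The epithelial keratin *Krt12* read 14.65 to 14.79 and the stromal proteoglycan *Lum* 13.16 to 13.71 on the 16 arrays. These were the narrowest ranges among the markers of differentiated epithelium and of keratocytes that are read below. The widest were those of *Clu* (7.05 to 11.48) and *Pdgfra* (8.26 to 11.27) respectively. Vessel markers lay on both sides of the arrays' medians of 6.551 to 6.618. *Pecam1* read 4.91 to 6.12, below them, whereas *Kdr* read 6.99 to 8.97 and *Egfl7* 7.29 to 8.11, above them.

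Promoters are shown first, for members that moved together below and whose start regions share short motifs. RefSeq start regions of the rat assembly GRCr8 (250 bases before to 50 after the start) were matched by symbol to 34 of the 45 genes, with 35 promoters. Searched on both strands were the cell cycle genes homology region or CHR (TTTGAA or TTCGAA), to which the MuvB complex binds, the CCAAT box (CCAAT), to which NF-Y binds, and the E2F site (TTTGGCGC, TTTCCCGC, TTTGCCGC or TTTCGCGC). The first 3 promoters below belong to mitotic members and the last 2 to replication members, with capitals marking these motifs in either orientation and each sequence ending at the base before the start. They are *Cks2* (chr17:13727520-13727669, minus strand), *Cdk1* (chr20:19265193-19265292, plus strand), *Top2a* (chr10:84473094-84473163, minus strand), *Mcm5* (chr19:13488723-13488812, plus strand) and *Mcm6* (chr13:42404353-42404502, minus strand).
Cks2: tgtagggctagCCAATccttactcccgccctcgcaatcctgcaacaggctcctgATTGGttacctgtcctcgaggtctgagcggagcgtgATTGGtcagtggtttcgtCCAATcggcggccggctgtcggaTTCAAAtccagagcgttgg
Cdk1: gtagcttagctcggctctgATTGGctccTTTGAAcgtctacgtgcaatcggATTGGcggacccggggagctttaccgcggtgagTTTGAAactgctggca
Top2a: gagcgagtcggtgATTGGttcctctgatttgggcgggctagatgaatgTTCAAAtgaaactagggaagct
Mcm5: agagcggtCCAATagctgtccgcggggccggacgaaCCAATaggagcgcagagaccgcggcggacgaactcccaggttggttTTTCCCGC
Mcm6: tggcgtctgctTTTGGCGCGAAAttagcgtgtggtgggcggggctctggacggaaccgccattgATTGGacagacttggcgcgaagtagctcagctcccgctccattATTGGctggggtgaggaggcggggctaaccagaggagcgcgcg

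The printed stretches are shorter than the window searched. In *Cks2* the CHR began 19 bases before the start. *Cdk1* had 1 at 16 and a second at 72, and *Top2a* had 1 at 22 and a second at 152, outside its printed stretch. *Mcm5* had its nearest E2F site 8 bases before the start, and *Mcm6* had 2 E2F matches on opposite strands that overlap each other. A CHR was found in 12 of 19 promoters of mitotic members (63.2%), against 19.7% of all 33469 promoters in the table, and a CCAAT box in 14 (73.7%), against 37.5%. Both together stood in 11 of them (57.9%), against 7.95% of all promoters, while an E2F site stood in 1 (*Cdk1*). Of the 9 promoters of replication members, 6 had an E2F site (66.7%, against 2.14% of all promoters), 6 a CCAAT box (66.7%) and 3 a CHR (33.3%). Of the 4 promoters of G1 members none had a CHR or an E2F site, and of the 3 promoters of CDK inhibitors 1 had a CHR (*Cdkn2b*). These matches describe the letters in the window only.

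Relative to naïve corneas, sham-treated corneas changed these genes about as often as all genes, whereas dexamethasone-treated corneas raised most of them. With IgG, 5 of 45 members were called (3 higher, 2 lower), a share of 11.1% beside 11.3% of all genes. With anti-*Vegf*, 20 were called (19 higher, 1 lower), beside 12.8% of all genes. With dexamethasone, 30 were called and all were higher, beside 12.6% of all genes called in either direction and 8.19% called higher (4.45% lower). These 3 comparisons share the naïve arrays. The median log2 difference over the 45 members was 0.09, 0.54 and 0.71 respectively, beside -0.01, -0.01 and 0.00 over all genes. Without naïve 1 and 2, an alternative chosen after the data were seen, 4, 25 and 32 members were called, and without naïve 3 and 4, 7, 17 and 25.

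Between treatments, dexamethasone raised most of these genes above the IgG level. Against IgG, 36 of 45 members were called (34 higher, 2 lower), beside 10.6% of all genes called and 7.41% called higher. The median log2 difference of the members was 0.64, beside 0.02 over all genes. Without F17, F27 or F19 the count was 27, 28 or 29. The 5′ minus 3′ log2 signal of the *Gapdh* controls, a sign of RNA integrity, was -0.48 to -0.32 on dexamethasone, -0.15 to -0.04 on IgG, -0.16 to -0.08 on anti-*Vegf* and -0.43 to -0.16 on naïve arrays. That of beta-actin was -1.38 to -0.95, -0.79 to -0.59, -1.19 to -0.60 and -1.75 to -0.82 in the same order. Dexamethasone and IgG arrays overlapped in neither control, and nor did IgG and naïve arrays. Dexamethasone and anti-*Vegf* arrays did not overlap in *Gapdh* but did in beta-actin. The part of these signals in the results was not tested. Anti-*Vegf* against IgG gave 0 called members of 45 and 0.0% called among all genes in limma, also with array weights, with a mean-variance trend, with cyclic loess and with a fit of these 2 groups alone. At an unadjusted p under 0.05, 34 members were higher and 1 was lower with anti-*Vegf*, where 6.63% of all genes passed in either direction and 4.21% were higher. Dexamethasone against anti-*Vegf* gave 5 called members (3 higher, 2 lower), a share of 11.1% beside 7.13% of all genes.

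**Figure D1:**
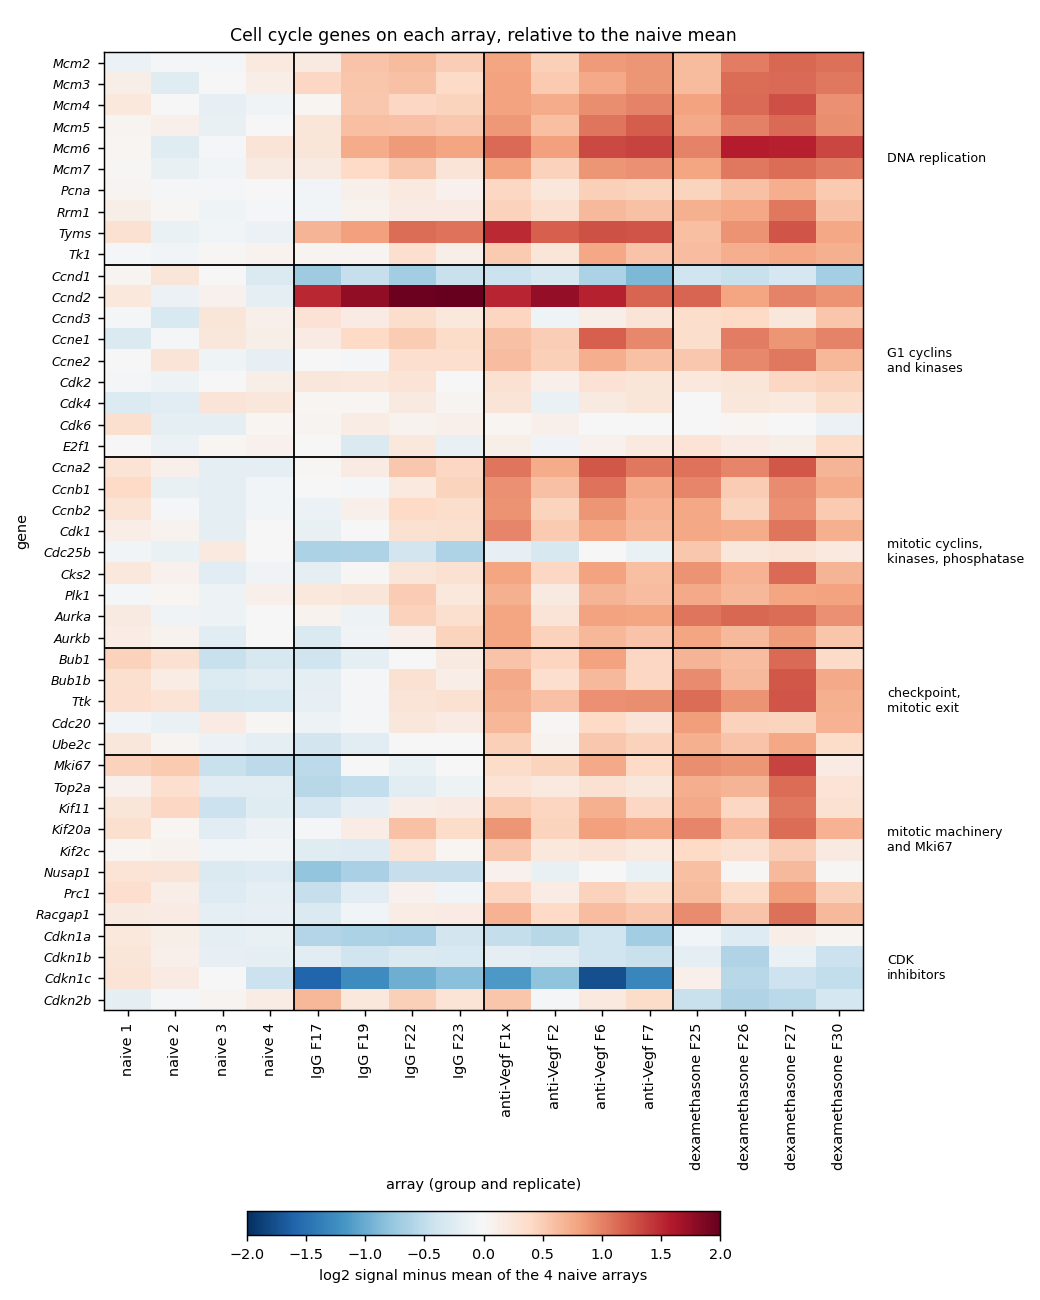
Heat map of the 45 measured genes (rows, grouped by role) on the 16 arrays (columns, grouped by treatment). Colour gives the log2 signal minus the mean of the 4 naïve arrays, red for higher and blue for lower. Replication and mitotic rows turn redder from IgG to anti-*Vegf* to dexamethasone. *Ccnd1* is blue in every sutured group, and *Cdkn1c* is bluer with IgG and anti-*Vegf* than with dexamethasone.

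The replication group held 10 measured genes. Relative to naïve corneas, 2 of 10 rose with IgG, 7 with anti-*Vegf* and 9 with dexamethasone, where 6.32%, 6.82% and 8.19% of all genes were called higher. Their median log2 difference was 0.42, 0.76 and 0.97. Against IgG, 9 of 10 rose with dexamethasone (median 0.53), and all 10 had means above IgG with anti-*Vegf* without passing the adjusted limit (median 0.40, smallest adjusted p = 0.326). Averaged over the 10 genes, the log2 signal was 8.68 ± 0.08 on naïve, 9.08 ± 0.15 on IgG, 9.47 ± 0.16 on anti-*Vegf* and 9.60 ± 0.18 on dexamethasone arrays (SD, n = 4 each).

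The 6 measured subunits of the Mcm helicase (*Mcm2* to *Mcm7*), which unwinds DNA at the replication fork, all rose with anti-*Vegf* and with dexamethasone relative to naïve corneas. *Mcm6* had the largest rise of the 10 replication genes with dexamethasone. Its log2 signals were 8.83, 8.55, 8.75 and 9.05 on the naïve arrays, 9.03, 9.54, 9.64 and 9.58 with IgG, 9.93, 9.62, 10.12 and 10.15 with anti-*Vegf* and 9.79, 10.36, 10.35 and 10.13 with dexamethasone. Every dexamethasone and anti-*Vegf* array lay above every naïve array, and IgG F17 lay within the naïve range. *Mcm6* rose relative to naïve by 0.65 (SE 0.16, adjusted p = 0.00722) with IgG, 1.16 (SE 0.16, adjusted p = 8.48e-05) with anti-*Vegf* and 1.36 (SE 0.16, adjusted p = 2.33e-05) with dexamethasone, the last a 2.57-fold change. The IgG call was lost without naïve 2. Dexamethasone exceeded IgG by 0.71 (SE 0.16, adjusted p = 0.012), and no dexamethasone array overlapped the IgG arrays.

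*Mcm4* read 9.24, 9.04, 8.86 and 8.96 on the naïve arrays, 9.06, 9.57, 9.44 and 9.47 with IgG, 9.83, 9.77, 9.95 and 10.02 with anti-*Vegf* and 9.83, 10.16, 10.32 and 9.94 with dexamethasone. Its anti-*Vegf* and dexamethasone arrays all lay above the IgG arrays. The rise over naïve was 0.87 (SE 0.12, adjusted p = 0.000105) with anti-*Vegf* and 1.04 (SE 0.12, adjusted p = 2.5e-05) with dexamethasone, and dexamethasone exceeded IgG by 0.68 (SE 0.12, adjusted p = 0.0034). *Mcm7* gave 9.49, 9.32, 9.42 and 9.64 on the naïve arrays, 9.65, 9.86, 10 and 9.73 with IgG, 10.28, 9.93, 10.35 and 10.38 with anti-*Vegf* and 10.26, 10.53, 10.58 and 10.51 with dexamethasone. The anti-*Vegf* arrays overlapped IgG through F2, and the dexamethasone arrays lay above every IgG and naïve array. It rose over naïve by 0.77 (SE 0.11, adjusted p = 0.000121) with anti-*Vegf* and 1.00 (SE 0.11, adjusted p = 1.29e-05) with dexamethasone, and over IgG by 0.66 (SE 0.11, adjusted p = 0.002) with dexamethasone. *Mcm3* signals were 8.01, 7.66, 7.89 and 8.04 on the naïve arrays, 8.31, 8.45, 8.49 and 8.29 with IgG, 8.70, 8.43, 8.65 and 8.79 with anti-*Vegf* and 8.54, 9.01, 9.04 and 8.95 with dexamethasone. Here the 4 IgG arrays already lay above all naïve arrays, by 0.48 (SE 0.12, adjusted p = 0.00584), which is under the fold limit.

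*Mcm5* was 7.95, 8.00, 7.74 and 7.89 on the naïve arrays, 8.13, 8.50, 8.48 and 8.44 with IgG, 8.76, 8.50, 8.96 and 9.11 with anti-*Vegf* and 8.66, 8.90, 9.03 and 8.83 with dexamethasone. Anti-*Vegf* and dexamethasone corneas stood at nearly one level, with rises over naïve of 0.94 (SE 0.12, adjusted p = 4.7e-05) and 0.96 (SE 0.12, adjusted p = 4.41e-05), and their difference from each other was 0.02 (95% interval -0.24 to 0.28). *Mcm2* measured 8.63, 8.72, 8.71 and 8.95 on the naïve arrays, 8.94, 9.33, 9.39 and 9.24 with IgG, 9.54, 9.23, 9.61 and 9.64 with anti-*Vegf* and 9.39, 9.78, 9.90 and 9.86 with dexamethasone. Dexamethasone and anti-*Vegf* lay above naïve on every array, and both reached into the IgG range, through F25 and F2. Its rise over naïve was 0.75 (SE 0.13, adjusted p = 0.000461) with anti-*Vegf* and 0.98 (SE 0.13, adjusted p = 5.77e-05) with dexamethasone. Against IgG, dexamethasone raised *Mcm2* by 0.51 (SE 0.13, adjusted p = 0.0222), *Mcm3* by 0.50 (SE 0.12, adjusted p = 0.0137) and *Mcm5* by 0.47 (SE 0.12, adjusted p = 0.0255). The *Mcm2* and *Mcm5* calls against IgG were lost without F17, F27 or F26 (highest adjusted p = 0.0716 and 0.0819).

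The nucleotide enzymes divided. *Tyms*, which makes thymidylate, read 6.59, 6.15, 6.24 and 6.17 on the naïve arrays, 6.97, 7.10, 7.41 and 7.37 with IgG, 7.78, 7.49, 7.56 and 7.55 with anti-*Vegf* and 6.89, 7.18, 7.54 and 7.06 with dexamethasone. All sutured corneas lay above all naïve corneas, with rises of 0.92 (SE 0.14, adjusted p = 0.00018) with IgG, 1.31 (SE 0.14, adjusted p = 7.5e-06) with anti-*Vegf* and 0.88 (SE 0.14, adjusted p = 0.000284) with dexamethasone. Unlike the other 9 replication genes it was not called between dexamethasone and IgG, with a difference of -0.05 (95% interval -0.34 to 0.25). Dexamethasone stood -0.43 from anti-*Vegf* (adjusted p = 0.0783), so the anti-*Vegf* arrays held the highest mean of *Tyms*.

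*Rrm1*, the large subunit of ribonucleotide reductase, gave 8.90, 8.80, 8.69 and 8.74 on the naïve arrays, 8.73, 8.86, 8.95 and 8.95 with IgG, 9.25, 9.10, 9.43 and 9.37 with anti-*Vegf* and 9.50, 9.55, 9.84 and 9.37 with dexamethasone. IgG arrays overlapped the naïve ones, whereas all anti-*Vegf* and dexamethasone arrays lay above both. Dexamethasone raised *Rrm1* by 0.78 (SE 0.10, adjusted p = 4.98e-05) over naïve and 0.69 (SE 0.10, adjusted p = 0.00077) over IgG. *Tk1*, which salvages thymidine, was 8.30, 8.27, 8.35 and 8.40 on the naïve arrays, 8.39, 8.38, 8.67 and 8.44 with IgG, 8.86, 8.57, 9.11 and 8.90 with anti-*Vegf* and 8.95, 9.05, 9.11 and 9.04 with dexamethasone. Its dexamethasone arrays lay within a narrow range above all naïve and IgG arrays. Dexamethasone raised it by 0.70 (SE 0.10, adjusted p = 9.66e-05) over naïve and 0.56 (SE 0.10, adjusted p = 0.00246) over IgG. A second probe set (1389858_at) was also called over naïve, with 0.61 (SE 0.16, adjusted p = 0.00983), but differed from IgG by 0.17 (adjusted p = 0.533) and from anti-*Vegf* by -0.16, and another, dimmer one (1397872_at) was called over IgG only, with 0.44 (SE 0.10, adjusted p = 0.0126). With the probe sets averaged, *Tk1* differed from naïve by 0.54, under the fold limit. *Pcna*, the sliding clamp, measured 11.59, 11.49, 11.51 and 11.53 on the naïve arrays, 11.48, 11.63, 11.72 and 11.61 with IgG, 11.94, 11.76, 12.00 and 11.98 with anti-*Vegf* and 11.97, 12.11, 12.26 and 12.05 with dexamethasone. All dexamethasone and anti-*Vegf* arrays lay above the other groups. Its difference between dexamethasone and naïve was 0.57 (SE 0.08, adjusted p = 0.000106), just under the fold limit, and against IgG it rose by 0.49 (SE 0.08, adjusted p = 0.00155).

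**Figure D2:**
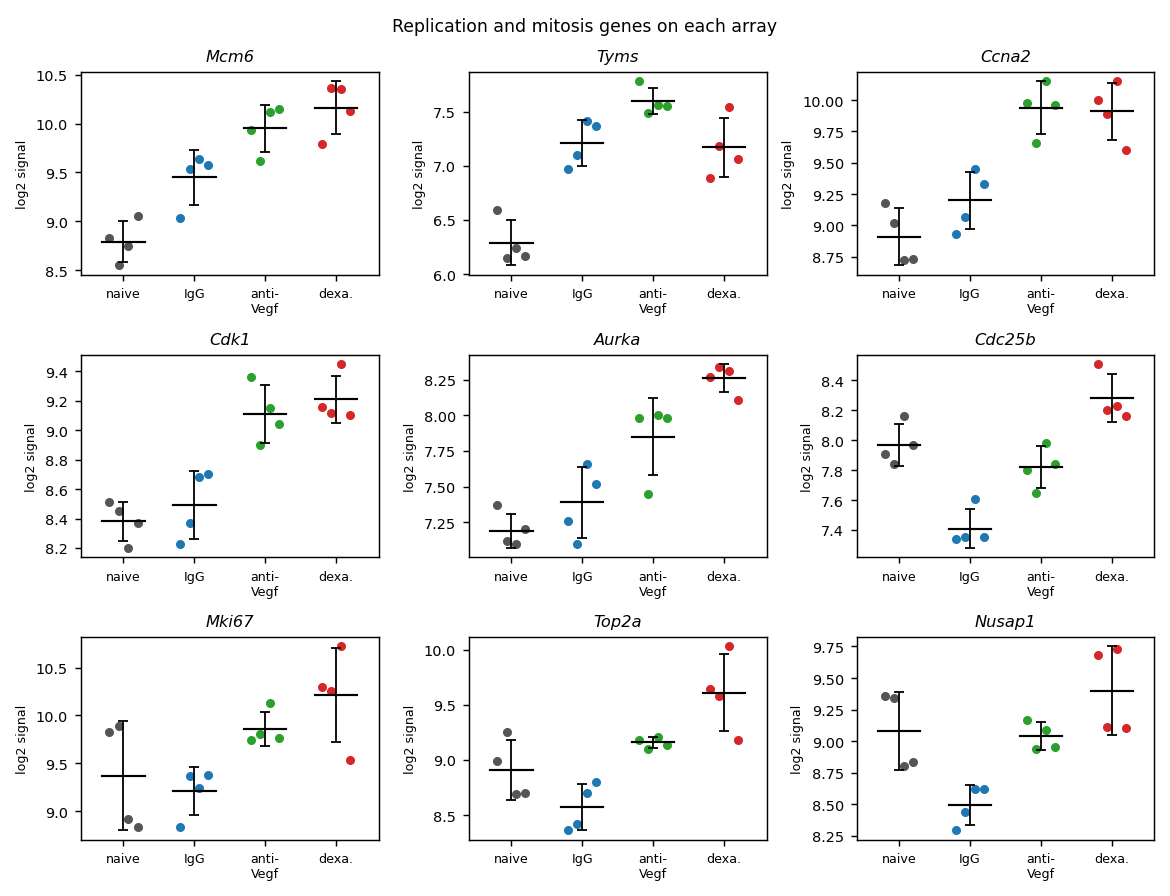
Log2 signal of 9 replication and mitosis genes on each array (vertical axes, which do not start at 0) in naïve, IgG, anti-*Vegf* and dexamethasone corneas (dexa.). Points are arrays in the order of the text, the long bar is the group mean and the whiskers are 1 SD (n = 4); *Mcm6* climbs in steps across the groups, *Cdc25b* is lowest with IgG and highest with dexamethasone, and the naïve arrays of *Mki67* and *Nusap1* fall into 2 pairs.

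The 9 G1 cyclins and kinases did not move as a group. Relative to naïve corneas 1 of 9 rose with IgG, 3 with anti-*Vegf* and 3 with dexamethasone, and none was called lower. Against IgG, dexamethasone raised 1 and lowered 1 (3.16% of all genes were called lower). *Ccnd2*, a D-type cyclin that answers to growth signals, changed most. Its log2 signals were 6.77, 6.45, 6.65 and 6.37 on the naïve arrays, 8.06, 8.34, 8.52 and 8.73 with IgG, 8.08, 8.31, 8.10 and 7.73 with anti-*Vegf* and 7.72, 7.35, 7.55 and 7.46 with dexamethasone. IgG had the highest mean and naïve the lowest, and the dexamethasone arrays overlapped none of the other 3 groups. *Ccnd2* rose over naïve by 1.85 (SE 0.15, adjusted p = 3.46e-07) with IgG, a 3.61-fold change, by 1.49 (SE 0.15, adjusted p = 3.16e-06) with anti-*Vegf* and by 0.96 (SE 0.15, adjusted p = 0.000198) with dexamethasone. It fell with dexamethasone relative to IgG, with a difference of -0.89 (SE 0.15, adjusted p = 0.00149), and relative to anti-*Vegf*, with a difference of -0.54 (SE 0.15, adjusted p = 0.0371). The last call was lost when any of 6 of the 8 arrays was left out (highest adjusted p = 0.105). *Ccnd2* and, among the mitotic members described below, *Nusap1* are named in the study's tables from these arrays, so their choice was not independent of them.

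*Ccnd1*, the D-type cyclin of many epithelial cells, went the other way without being called. Its brightest probe set read 12.49, 12.67, 12.43 and 12.15 on the naïve arrays, 11.72, 11.97, 11.74 and 11.99 with IgG, 12.00, 12.11, 11.80 and 11.53 with anti-*Vegf* and 12.04, 11.99, 12.10 and 11.75 with dexamethasone. All 12 sutured corneas lay below all 4 naïve ones, with differences of -0.58 (SE 0.13, adjusted p = 0.00415) with IgG, -0.57 (SE 0.13, adjusted p = 0.00428) with anti-*Vegf* and -0.46 (SE 0.13, adjusted p = 0.0185) with dexamethasone, which are below the 1.5-fold limit. A second *Ccnd1* probe set (1371643_at) passed both limits, with -0.97 (SE 0.10, adjusted p = 3.94e-06), -1.04 (SE 0.10, adjusted p = 1.71e-06) and -0.69 (SE 0.10, adjusted p = 8.79e-05), and another (1371150_at) gave -0.49, -0.49 and -0.55 without passing the fold limit. *Ccnd3* differed from naïve by 0.26, 0.18 and 0.38 with IgG, anti-*Vegf* and dexamethasone, with no call.

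The E-type cyclins, which partner *Cdk2* at the start of S phase, rose with anti-*Vegf* and dexamethasone. *Ccne1* read 6.47, 6.72, 6.98 and 6.87 on the naïve arrays, 6.93, 7.16, 7.27 and 7.13 with IgG, 7.35, 7.25, 7.96 and 7.72 with anti-*Vegf* and 7.11, 7.78, 7.65 and 7.75 with dexamethasone. The groups of sutured corneas overlapped each other, and the anti-*Vegf* and dexamethasone arrays all lay above naïve, by 0.81 (SE 0.17, adjusted p = 0.00206) and 0.81 (SE 0.17, adjusted p = 0.00232). *Ccne2* gave 7.24, 7.48, 7.14 and 7.06 on the naïve arrays, 7.22, 7.21, 7.56 and 7.56 with IgG, 7.85, 7.70, 7.95 and 7.81 with anti-*Vegf* and 7.77, 8.19, 8.29 and 7.89 with dexamethasone. In *Ccne2*, unlike *Ccne1*, all anti-*Vegf* and dexamethasone arrays lay above all naïve and IgG arrays. It rose over naïve by 0.60 (SE 0.13, adjusted p = 0.00261) and 0.80 (SE 0.13, adjusted p = 0.000298), and dexamethasone exceeded IgG by 0.65 (SE 0.13, adjusted p = 0.00528). The anti-*Vegf* call was lost without naïve 3, naïve 4 or F6. A second probe set of *Ccne2* (1391681_at), which read 4.68 to 5.56, showed differences of -0.15 and -0.16 from naïve.

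The kinases *Cdk2*, *Cdk4* and *Cdk6* and the transcription factor *E2f1* were called in no comparison. *Cdk2* differed from naïve by 0.34 with dexamethasone (95% interval 0.16 to 0.52), and its other probe set (1378874_at) was higher with dexamethasone than with IgG by 0.48 (SE 0.11, adjusted p = 0.0138). *Cdk4*, the kinase of D-type cyclins, differed by 0.20 (95% interval -0.07 to 0.46). *Cdk6*, which shares that role, read 4.46 to 4.96 on the 16 arrays, below the 40th percentile of signal on each, so little could be read from it. *E2f1* lay 0.29 above IgG with dexamethasone (adjusted p = 0.0854, 95% interval 0.07 to 0.50).

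Of the 9 mitotic cyclins, kinases and the phosphatase, none was called with IgG relative to naïve (2 had an unadjusted p under 0.05 in limma, 1 higher and 1 lower, beside 40.4% of all genes in either direction), 7 rose with anti-*Vegf* and 8 with dexamethasone. Against IgG all 9 rose with dexamethasone, and no dexamethasone array overlapped an IgG array in any of the 9, a separation upwards that 11.3% of all genes showed. With anti-*Vegf* 7 of 9 separated upwards from IgG, as 3.45% of all genes did, yet the smallest adjusted p was 0.286 (*Ccna2*). The mean log2 signal over the 9 genes was 8.41 ± 0.13 on naïve, 8.50 ± 0.19 on IgG, 9.03 ± 0.19 on anti-*Vegf* and 9.18 ± 0.14 on dexamethasone arrays (SD, n = 4 each).

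Cyclin A2 acts in S phase and at entry into mitosis. *Ccna2* read 9.18, 9.02, 8.72 and 8.73 on the naïve arrays, 8.93, 9.07, 9.45 and 9.33 with IgG, 9.98, 9.66, 10.15 and 9.96 with anti-*Vegf* and 10, 9.89, 10.15 and 9.60 with dexamethasone. Anti-*Vegf* and dexamethasone arrays shared one range above the IgG arrays. Its rise over naïve was 1.03 (SE 0.15, adjusted p = 0.000106) with anti-*Vegf* and 1.00 (SE 0.15, adjusted p = 0.000161) with dexamethasone, and these groups differed by -0.03 (95% interval -0.34 to 0.28). Over IgG the rise with dexamethasone was 0.71 (SE 0.15, adjusted p = 0.00696), and the difference with anti-*Vegf* was 0.74 (95% interval 0.43 to 1.06), which did not pass after adjustment.

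The B-type cyclins bind *Cdk1* and trigger mitosis. *Ccnb1* gave 8.58, 8.03, 7.98 and 8.12 on the naïve arrays, 8.17, 8.16, 8.38 and 8.62 with IgG, 9.09, 8.76, 9.27 and 8.93 with anti-*Vegf* and 9.16, 8.68, 9.13 and 8.92 with dexamethasone. All anti-*Vegf* and dexamethasone arrays lay above the naïve and IgG arrays. It rose over naïve by 0.83 (SE 0.15, adjusted p = 0.000796) with anti-*Vegf* and 0.80 (SE 0.15, adjusted p = 0.00129) with dexamethasone, and over IgG by 0.64 (SE 0.15, adjusted p = 0.0148) with dexamethasone, a call lost without F19 (adjusted p = 0.0505). *Ccnb2* measured 9.20, 8.90, 8.72 and 8.87 on the naïve arrays, 8.80, 9.03, 9.32 and 9.27 with IgG, 9.82, 9.37, 9.80 and 9.61 with anti-*Vegf* and 9.70, 9.36, 9.83 and 9.45 with dexamethasone. Dexamethasone F26 and anti-*Vegf* F2 came within 0.1 of the highest IgG array, and neither group overlapped IgG or naïve. It rose over naïve by 0.73 (SE 0.14, adjusted p = 0.00134) with anti-*Vegf* and 0.67 (SE 0.14, adjusted p = 0.00297) with dexamethasone, the latter not without F27. Its call against IgG, 0.48 (SE 0.14, adjusted p = 0.0446), was lost when any of 5 of the 8 arrays was left out.

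*Cdk1*, the mitotic kinase, was 8.51, 8.45, 8.20 and 8.37 on the naïve arrays, 8.23, 8.37, 8.68 and 8.70 with IgG, 9.36, 8.90, 9.15 and 9.04 with anti-*Vegf* and 9.16, 9.12, 9.45 and 9.10 with dexamethasone. Again the anti-*Vegf* and dexamethasone arrays lay above all others. *Cdk1* rose over naïve by 0.73 (SE 0.13, adjusted p = 0.000461) with anti-*Vegf* and 0.83 (SE 0.13, adjusted p = 0.000191) with dexamethasone, and over IgG by 0.72 (SE 0.13, adjusted p = 0.00248) with dexamethasone. *Cks2*, a small subunit of Cdk complexes whose promoter is printed above, read 10, 9.88, 9.57 and 9.73 on the naïve arrays, 9.60, 9.82, 10.03 and 10.10 with IgG, 10.59, 10.21, 10.60 and 10.39 with anti-*Vegf* and 10.69, 10.49, 10.93 and 10.48 with dexamethasone. The same separation from naïve and IgG was seen in this gene. Dexamethasone raised it by 0.85 (SE 0.13, adjusted p = 0.000264) over naïve and 0.76 (SE 0.13, adjusted p = 0.00267) over IgG, and anti-*Vegf* by 0.65 (SE 0.13, adjusted p = 0.00188) over naïve (not without naïve 3).

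Aurora and polo-like kinases build the spindle. *Aurka*, which acts at the spindle poles, gave 7.37, 7.12, 7.10 and 7.20 on the naïve arrays, 7.26, 7.10, 7.66 and 7.52 with IgG, 7.98, 7.45, 8.00 and 7.98 with anti-*Vegf* and 8.27, 8.34, 8.31 and 8.11 with dexamethasone. Dexamethasone arrays were the highest and overlapped no other group. *Aurka* rose over naïve by 0.66 (SE 0.13, adjusted p = 0.00166) with anti-*Vegf* and 1.06 (SE 0.13, adjusted p = 3.62e-05) with dexamethasone, a 2.09-fold change, and over IgG by 0.87 (SE 0.13, adjusted p = 0.00106). Between dexamethasone and anti-*Vegf* the difference of 0.40 did not pass (adjusted p = 0.0831). *Aurkb*, which corrects chromosome attachment, was 8.43, 8.35, 8.07 and 8.28 on the naïve arrays, 8.00, 8.21, 8.39 and 8.73 with IgG, 9.07, 8.74, 8.94 and 8.85 with anti-*Vegf* and 9.07, 8.93, 9.14 and 8.83 with dexamethasone. IgG F23 came closest to the anti-*Vegf* and dexamethasone arrays, without overlap. Its rise over naïve was 0.62 (SE 0.13, adjusted p = 0.00271) with anti-*Vegf* (not without naïve 3 or F1x) and 0.71 (SE 0.13, adjusted p = 0.00109) with dexamethasone, and over IgG 0.66 (SE 0.13, adjusted p = 0.00577) with dexamethasone. *Plk1* measured 8.01, 8.08, 7.95 and 8.14 on the naïve arrays, 8.26, 8.28, 8.55 and 8.26 with IgG, 8.75, 8.22, 8.72 and 8.66 with anti-*Vegf* and 8.81, 8.71, 8.83 and 8.85 with dexamethasone. The 4 dexamethasone arrays lay close together and above all IgG arrays, and *Plk1* rose by 0.76 (SE 0.11, adjusted p = 0.000104) over naïve and 0.46 (SE 0.11, adjusted p = 0.0125) over IgG.

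*Cdc25b*, the phosphatase that activates *Cdk1*, was the only 1 of the 9 genes of this role with its lowest mean with IgG. It read 7.91, 7.84, 8.16 and 7.97 on the naïve arrays, 7.34, 7.35, 7.61 and 7.35 with IgG, 7.80, 7.65, 7.98 and 7.84 with anti-*Vegf* and 8.51, 8.20, 8.23 and 8.16 with dexamethasone. The IgG arrays were the lowest and overlapped no naïve array, with a difference of -0.55 (SE 0.10, adjusted p = 0.000843) that stayed under the fold limit. Dexamethasone exceeded IgG by 0.86 (SE 0.10, adjusted p = 0.000165), a 1.82-fold change, and anti-*Vegf* by 0.46 (SE 0.10, adjusted p = 0.014), without overlap in either. Against naïve the difference with dexamethasone was 0.31 (SE 0.10, adjusted p = 0.0382), again under the fold limit. Of the 32 replication and mitotic members, *Cdc25b* alone was called between dexamethasone and anti-*Vegf*.

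**Figure D3:**
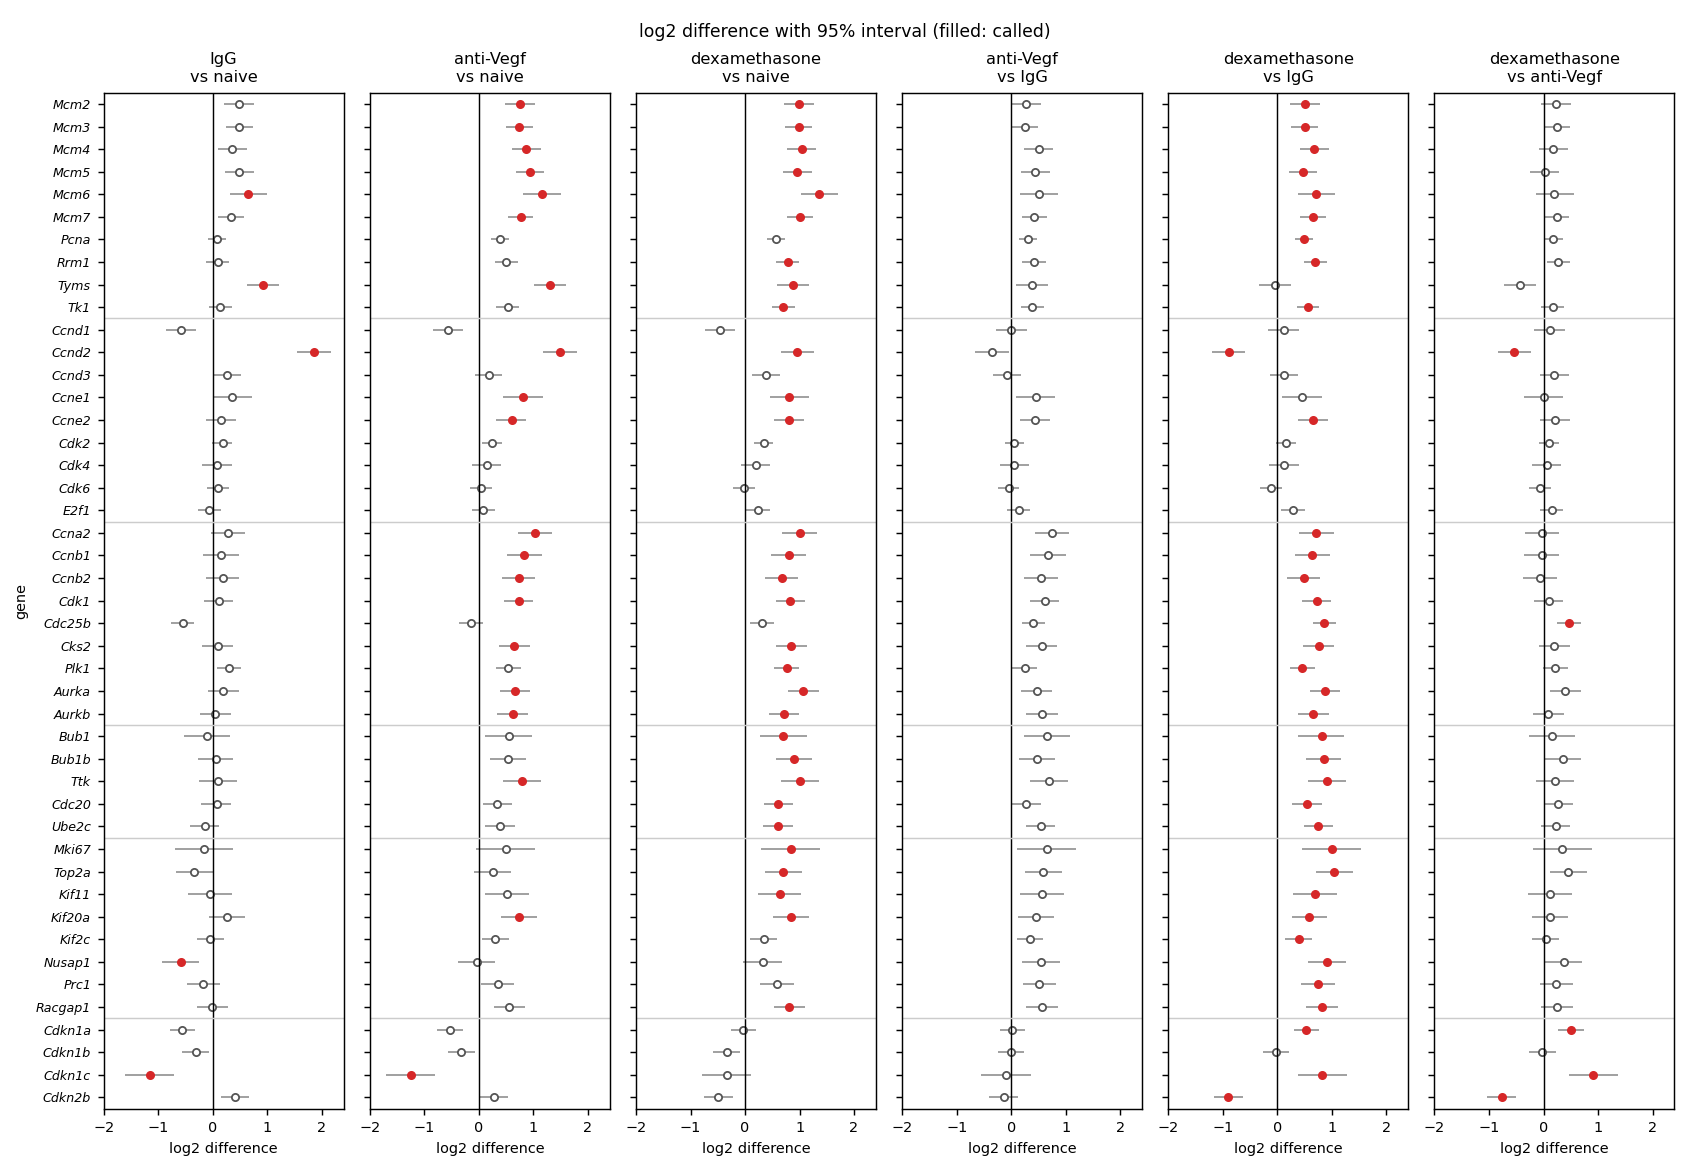
Log2 difference of each of the 45 genes (rows, in role order) in the 6 comparisons (panels, first group minus second). Dots are estimates, grey lines 95% intervals from limma, and filled red dots are called; called genes number 5, 20, 30, 0, 36 and 5 from left to right, and in the panel of anti-*Vegf* against IgG the replication and mitotic dots lie to the right of 0 without being called.

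The 5 genes of the spindle checkpoint and mitotic exit were not called with IgG (0 of 5, with 0 at an unadjusted p under 0.05), 1 rose with anti-*Vegf* and all 5 with dexamethasone relative to naïve corneas. All 5 rose with dexamethasone relative to IgG, where 7.41% of all genes were called higher. Their arrays did not overlap, a separation upwards that 11.3% of all genes showed. *Ttk*, the kinase that starts checkpoint signalling, read 8.21, 8.14, 7.55 and 7.57 on the naïve arrays, 7.71, 7.83, 8.12 and 8.17 with IgG, 8.60, 8.45, 8.78 and 8.79 with anti-*Vegf* and 8.98, 8.77, 9.13 and 8.58 with dexamethasone. Naïve 1 and 2 reached the level of the upper IgG arrays, and the anti-*Vegf* and dexamethasone arrays lay above all of these. *Ttk* rose over naïve by 0.79 (SE 0.16, adjusted p = 0.00211) with anti-*Vegf* and 1.00 (SE 0.16, adjusted p = 0.000384) with dexamethasone, and over IgG by 0.91 (SE 0.16, adjusted p = 0.00311) with dexamethasone. A second probe set (1397476_at) was also called over naïve (0.67, 1.28 and 0.87 with IgG, anti-*Vegf* and dexamethasone) but not between dexamethasone and IgG (0.20).

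*Bub1b*, part of the complex that restrains *Cdc20*, gave 7.83, 7.66, 7.24 and 7.30 on the naïve arrays, 7.33, 7.48, 7.81 and 7.64 with IgG, 8.26, 7.85, 8.15 and 7.92 with anti-*Vegf* and 8.45, 8.16, 8.75 and 8.27 with dexamethasone. Naïve 1 and IgG F22 were the highest of their groups and lay below every anti-*Vegf* and dexamethasone array. Dexamethasone raised it by 0.90 (SE 0.15, adjusted p = 0.000531) over naïve and 0.85 (SE 0.15, adjusted p = 0.00325) over IgG. *Bub1*, a kinetochore kinase, was 8.92, 8.76, 8.01 and 8.14 on the naïve arrays, 8.06, 8.27, 8.47 and 8.63 with IgG, 9.03, 8.88, 9.26 and 8.87 with anti-*Vegf* and 9.14, 9.07, 9.59 and 8.84 with dexamethasone. Naïve 1 and 2 lay within the range of the anti-*Vegf* arrays or just below it. Its calls with dexamethasone, 0.70 (SE 0.20, adjusted p = 0.018) over naïve and 0.81 (SE 0.20, adjusted p = 0.019) over IgG, were each lost when any of 3 arrays was left out, F27 among them (highest adjusted p = 0.0641 and 0.065).

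*Cdc20*, which activates the ligase that ends mitosis, measured 8.70, 8.63, 8.92 and 8.79 on the naïve arrays, 8.66, 8.72, 8.99 and 8.92 with IgG, 9.42, 8.78, 9.16 and 9.02 with anti-*Vegf* and 9.59, 9.22, 9.21 and 9.45 with dexamethasone. Dexamethasone arrays lay above all naïve and IgG arrays, while anti-*Vegf* F2 lay among them. Dexamethasone raised it by 0.61 (SE 0.13, adjusted p = 0.00244) over naïve and 0.54 (SE 0.13, adjusted p = 0.0138) over IgG, while 4 weaker probe sets of *Cdc20* gave 0.21 to 0.38 for the latter with no call. The call over naïve was lost without F25, F30 or naïve 2. It was also lost with array weights, with centring on reference genes and with the probe sets averaged. Over naïve the 4 weaker probe sets gave 0.10 to 0.37, again with no call. *Ube2c*, which hands ubiquitin to that ligase, read 9.54, 9.37, 9.20 and 9.14 on the naïve arrays, 8.94, 9.09, 9.31 and 9.31 with IgG, 9.79, 9.39, 9.85 and 9.77 with anti-*Vegf* and 10.02, 9.88, 10.09 and 9.68 with dexamethasone. Naïve 1 and 2 were above all IgG arrays, and the dexamethasone arrays were above both groups. It rose with dexamethasone by 0.60 (SE 0.13, adjusted p = 0.00251) over naïve, a call lost without any of 4 arrays, and by 0.75 (SE 0.13, adjusted p = 0.00183) over IgG.

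The 8 genes of the mitotic machinery had their lowest mean with IgG rather than in naïve corneas in 7 of 8. Relative to naïve, 1 fell with IgG, 1 rose with anti-*Vegf* and 5 rose with dexamethasone. In these directions 5.02%, 6.82% and 8.19% of all genes were called. Relative to IgG all 8 rose with dexamethasone, where 7.41% of all genes were called higher. In all 8, naïve 1 and 2 lay above naïve 3 and 4. Averaged over the 8 genes, naïve arrays read 8.93, 8.93, 8.43 and 8.47, IgG arrays 8.28, 8.48, 8.74 and 8.70, anti-*Vegf* arrays 9.16, 8.95, 9.18 and 9.03 and dexamethasone arrays 9.43, 9.17, 9.65 and 9.03.

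*Mki67* encodes Ki-67, a protein of cycling cells that coats mitotic chromosomes. It read 9.83, 9.89, 8.92 and 8.84 on the naïve arrays, 8.84, 9.37, 9.24 and 9.38 with IgG, 9.74, 9.81, 10.13 and 9.77 with anti-*Vegf* and 10.30, 10.26, 10.72 and 9.54 with dexamethasone. The naïve arrays spanned more than 1 log2 unit, so that naïve 1 and 2 overlapped the anti-*Vegf* and dexamethasone arrays. Group means were 9.37 ± 0.57, 9.21 ± 0.25, 9.86 ± 0.18 and 10.21 ± 0.49 (SD, n = 4). Dexamethasone raised *Mki67* by 0.84 (SE 0.25, adjusted p = 0.0259) over naïve and 1.00 (SE 0.25, adjusted p = 0.0217) over IgG, a 2.0-fold change. The first call was lost when any of 5 arrays was left out (highest adjusted p = 0.0875) and the second without F27, F17 or F26 (highest adjusted p = 0.0732). With anti-*Vegf* the difference from IgG was 0.65 (95% interval 0.11 to 1.19).

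*Top2a*, which untangles DNA strands before they separate, had the largest rise over IgG of all 45 genes with dexamethasone. It read 8.99, 9.25, 8.69 and 8.70 on the naïve arrays, 8.36, 8.42, 8.70 and 8.80 with IgG, 9.18, 9.10, 9.21 and 9.14 with anti-*Vegf* and 9.64, 9.58, 10.03 and 9.18 with dexamethasone. Dexamethasone and IgG arrays did not overlap, and the anti-*Vegf* arrays lay above all IgG arrays in a narrow range, which F30 also fell into. *Top2a* rose with dexamethasone by 1.04 (SE 0.16, adjusted p = 0.00106) over IgG, a 2.05-fold change, and by 0.70 (SE 0.16, adjusted p = 0.00442) over naïve, the latter not without F27. A second *Top2a* probe set (1372186_a_at) gave 0.89 (SE 0.14, adjusted p = 0.00146) and 0.72 (SE 0.14, adjusted p = 0.00178).

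*Nusap1*, which bundles spindle microtubules near chromosomes, fell in sham-treated corneas. It gave 9.36, 9.34, 8.80 and 8.83 on the naïve arrays, 8.29, 8.44, 8.62 and 8.62 with IgG, 9.17, 8.94, 9.09 and 8.95 with anti-*Vegf* and 9.68, 9.11, 9.73 and 9.10 with dexamethasone. All IgG arrays lay below all arrays of the other groups. The difference with IgG relative to naïve was -0.59 (SE 0.16, adjusted p = 0.0131), a call lost without naïve 1, naïve 2, F17 or F19, and a second probe set (1392732_at) gave -0.63 (SE 0.17, adjusted p = 0.0127). Dexamethasone exceeded IgG by 0.91 (SE 0.16, adjusted p = 0.0028) but naïve by only 0.32 (95% interval -0.03 to 0.67).

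*Prc1* crosslinks microtubules of the central spindle and *Racgap1* directs the cleavage furrow there. *Racgap1* was 9.83, 9.81, 9.47 and 9.48 on the naïve arrays, 9.36, 9.60, 9.79 and 9.81 with IgG, 10.35, 10.04, 10.26 and 10.18 with anti-*Vegf* and 10.60, 10.21, 10.75 and 10.30 with dexamethasone. IgG and naïve arrays shared one range, with anti-*Vegf* and dexamethasone above it. It rose with dexamethasone by 0.81 (SE 0.14, adjusted p = 0.000434) over naïve and 0.82 (SE 0.14, adjusted p = 0.0017) over IgG. *Prc1* measured 9.81, 9.61, 9.22 and 9.28 on the naïve arrays, 9.02, 9.26, 9.56 and 9.42 with IgG, 9.91, 9.63, 9.94 and 9.83 with anti-*Vegf* and 10.11, 9.85, 10.32 and 9.96 with dexamethasone. Naïve 1 overlapped the anti-*Vegf* arrays, and the dexamethasone arrays lay above all naïve and IgG arrays. Its rise with dexamethasone over IgG was 0.74 (SE 0.14, adjusted p = 0.00471), and its difference from naïve, 0.58 (SE 0.14, adjusted p = 0.00831), stayed just under the fold limit.

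*Kif11*, *Kif20a* and *Kif2c* are motor proteins of the spindle. *Kif20a* read 8.13, 7.85, 7.59 and 7.69 on the naïve arrays, 7.78, 7.96, 8.40 and 8.19 with IgG, 8.70, 8.26, 8.64 and 8.58 with anti-*Vegf* and 8.79, 8.43, 8.94 and 8.51 with dexamethasone. Anti-*Vegf* F2 lay among the IgG arrays, and all dexamethasone arrays lay above naïve and IgG. It rose over naïve by 0.73 (SE 0.15, adjusted p = 0.00233) with anti-*Vegf* and 0.85 (SE 0.15, adjusted p = 0.00084) with dexamethasone, and over IgG by 0.58 (SE 0.15, adjusted p = 0.0256). *Kif11* gave 8.18, 8.35, 7.51 and 7.69 on the naïve arrays, 7.60, 7.77, 8.07 and 8.09 with IgG, 8.45, 8.37, 8.65 and 8.34 with anti-*Vegf* and 8.69, 8.35, 8.98 and 8.24 with dexamethasone. Naïve 2 reached the level of dexamethasone F26 and F30, and no dexamethasone array overlapped IgG. Dexamethasone raised it by 0.64 (SE 0.19, adjusted p = 0.0226) over naïve and 0.69 (SE 0.19, adjusted p = 0.0302) over IgG. *Kif2c* was 7.30, 7.34, 7.21 and 7.22 on the naïve arrays, 7.02, 7.01, 7.54 and 7.31 with IgG, 7.81, 7.48, 7.52 and 7.47 with anti-*Vegf* and 7.66, 7.57, 7.76 and 7.44 with dexamethasone, and IgG F22 overlapped the dexamethasone arrays. The rise of *Kif2c* over IgG with dexamethasone was 0.39 (SE 0.12, adjusted p = 0.0446). The calls of *Kif20a*, *Kif11* and *Kif2c* against IgG were each lost when any of 4, 4 and 6 arrays was left out (highest adjusted p = 0.0845, 0.0984 and 0.134), as was the call of *Kif11* against naïve (any of 4 arrays, 0.0787). Second probe sets of *Kif11* (1385619_at) and *Kif2c* (1369380_at) gave 0.42 and 0.23 between dexamethasone and IgG, with no call (adjusted p = 0.165 and 0.241). With the probe sets averaged, *Kif11* was called neither against IgG (0.55, adjusted p = 0.0599) nor against naïve (0.55, under the fold limit).

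**Figure D4:**
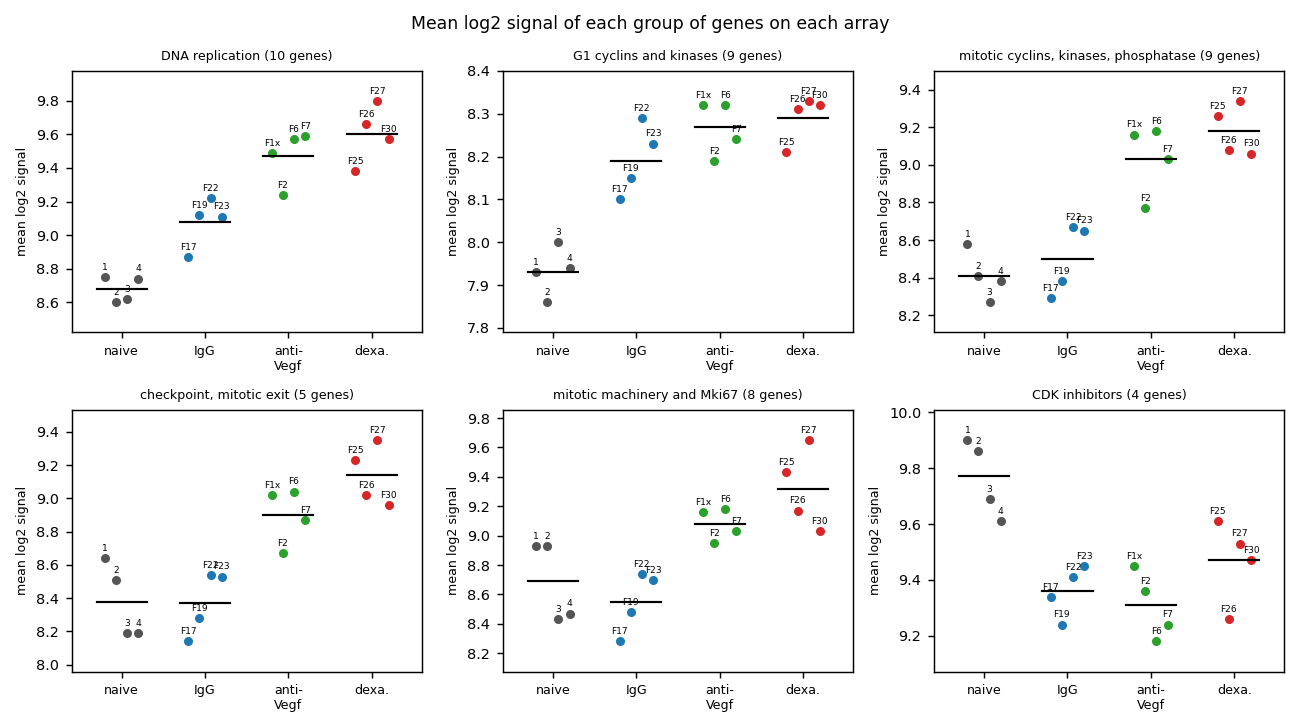
Mean log2 signal over the genes of each role on each array (points with sample codes; vertical axes do not start at 0), by group, with the group mean as a bar. In the 4 replication and mitotic panels the anti-*Vegf* and dexamethasone arrays lie above all IgG arrays, F17 is the lowest IgG array and F2 the lowest anti-*Vegf* array, and in 3 panels F30 is the lowest dexamethasone array.

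The 4 CDK inhibitors, which hold cells back from division, behaved as individuals. With IgG and with anti-*Vegf* 1 of 4 fell relative to naïve and none rose (5.02% and 5.94% of all genes were called lower), and with dexamethasone none was called. Relative to IgG and to anti-*Vegf*, dexamethasone raised 2 and lowered 1 (4.63% of all genes were called higher and 2.50% lower in the latter comparison). *Cdkn1c*, which encodes p57, read 9.42, 9.31, 9.15 and 8.73 on the naïve arrays, 7.57, 7.89, 8.18 and 8.32 with IgG, 8.00, 8.35, 7.39 and 7.85 with anti-*Vegf* and 9.25, 8.59, 8.74 and 8.66 with dexamethasone. IgG and anti-*Vegf* arrays lay below all naïve arrays, whereas dexamethasone arrays overlapped the naïve ones. *Cdkn1c* fell relative to naïve, with log2 differences of -1.16 (SE 0.21, adjusted p = 0.000853) with IgG and -1.25 (SE 0.21, adjusted p = 0.000422) with anti-*Vegf*, and its difference with dexamethasone was -0.34 (95% interval -0.79 to 0.11). Dexamethasone exceeded IgG by 0.82 (SE 0.21, adjusted p = 0.0234) and anti-*Vegf* by 0.91 (SE 0.21, adjusted p = 0.0181), calls that were lost without F25, F17 or F19 and without F6 respectively (highest adjusted p = 0.0752 and 0.0608).

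*Cdkn1a*, which encodes the p53 target p21, gave by its brighter probe set 10.79, 10.70, 10.40 and 10.44 on the naïve arrays, 9.99, 9.95, 9.94 and 10.21 with IgG, 10.10, 10.02, 10.19 and 9.88 with anti-*Vegf* and 10.52, 10.33, 10.72 and 10.64 with dexamethasone. IgG and anti-*Vegf* arrays again lay below naïve, with differences of -0.56 (SE 0.11, adjusted p = 0.00139) and -0.53 (SE 0.11, adjusted p = 0.00184), both under the fold limit, while dexamethasone stood -0.03 from naïve (95% interval -0.26 to 0.20). Dexamethasone exceeded IgG by 0.53 (SE 0.11, adjusted p = 0.00695) and anti-*Vegf* by 0.50 (SE 0.11, adjusted p = 0.0128). A second probe set (1387391_at) did not show this order. It read 10.08, 9.47, 9.71 and 9.86 with IgG and 9.93, 7.79, 9.39 and 10.12 with dexamethasone, so that F26 alone was low, and its difference was -0.47 (adjusted p = 0.45).

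*Cdkn2b*, which encodes p15 and blocks *Cdk4* and *Cdk6*, fell with dexamethasone relative to IgG, the only one of the 4 inhibitors called lower there by its brightest probe set. It read 7.58, 7.74, 7.81 and 7.91 on the naïve arrays, 8.43, 7.97, 8.24 and 8.03 with IgG, 8.31, 7.74, 7.96 and 8.13 with anti-*Vegf* and 7.31, 7.16, 7.22 and 7.41 with dexamethasone. No dexamethasone array overlapped any other group. *Cdkn2b* fell with dexamethasone relative to IgG, -0.90 (SE 0.12, adjusted p = 0.000537), and relative to anti-*Vegf*, -0.76 (SE 0.12, adjusted p = 0.00247). Relative to naïve the difference was -0.49 (SE 0.12, adjusted p = 0.00958) with dexamethasone and 0.41 (SE 0.12, adjusted p = 0.0221) with IgG, both under the fold limit and of opposite sign. *Cdkn1b*, which encodes p27, was called in no comparison by its brightest probe set, with -0.03 between dexamethasone and IgG (95% interval -0.27 to 0.22). A dimmer probe set (1369192_at) disagreed, with 8.55, 8.47, 8.40 and 8.22 on naïve, 9.04, 9.02, 9.06 and 9.07 on IgG and 8.34, 7.64, 8.30 and 7.69 on dexamethasone arrays. By this probe set *Cdkn1b* was higher with IgG than in naïve corneas by 0.64 (SE 0.15, adjusted p = 0.00476) and lower with dexamethasone, with differences of -1.05 (SE 0.15, adjusted p = 0.000603) from IgG and -0.91 (SE 0.15, adjusted p = 0.00255) from anti-*Vegf*.

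**Figure D5:**
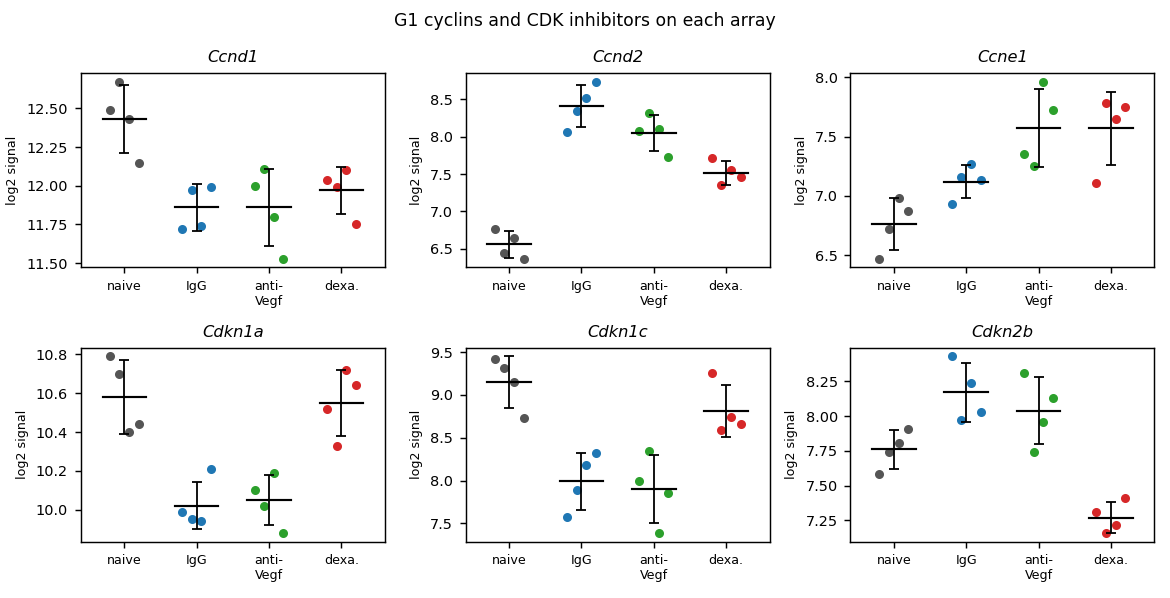
Log2 signal of 3 G1 cyclins and 3 CDK inhibitors on each array (vertical axes, which do not start at 0) in naïve, IgG, anti-*Vegf* and dexamethasone corneas (dexa.). Points are arrays, the long bar is the mean and the whiskers are 1 SD (n = 4); *Ccnd2* is highest with IgG, *Cdkn1a* and *Cdkn1c* are near the naïve level with dexamethasone, and *Cdkn2b* is lowest with dexamethasone.

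The means of the 32 replication and mitotic members ran from dexamethasone through anti-*Vegf* down to IgG in 28 of 32 (87.5%), an order that 23.6% of all genes had. The exceptions were *Tyms*, *Ccna2*, *Ccnb1* and *Ccnb2*. Dexamethasone against naïve had a median difference of 0.81 over the 32 members, beside 0.00 over all genes. Anti-*Vegf* against IgG had 0.51, beside -0.01 over all genes. With anti-*Vegf* all 32 had means above IgG but 0 were called. The arrays of 22 separated upwards, as those of 3.45% of all genes did. Between dexamethasone and anti-*Vegf* the median was 0.21, and their differences ran from -0.43 (*Tyms*) to 0.46 (*Cdc25b*).

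Further genes of these pathways, outside the 45, were read from lists drawn up for each pathway. Of 37 other replication and nucleotide genes, 2 rose and 1 fell with IgG, 9 rose and 1 fell with anti-*Vegf*, and 15 rose and 1 fell with dexamethasone relative to naïve. Of all genes, 6.32%, 6.82% and 8.19% were called higher in these comparisons and 5.02%, 5.94% and 4.45% lower. Against IgG 26 rose with dexamethasone and none fell (median 0.52), where 7.41% of all genes were called higher. *Hells*, a chromatin remodeller of replicating cells, and *Orc1*, which marks origins, rose relative to naïve with dexamethasone by 1.50 (SE 0.19, adjusted p = 4.56e-05) and 1.49 (SE 0.16, adjusted p = 7.25e-06), and *Cdt1*, which helps to load the helicase, by 1.08 (SE 0.16, adjusted p = 0.000163). Against IgG the largest rises with dexamethasone were *Orc1* with 0.88 (SE 0.16, adjusted p = 0.00287), *Pole*, the leading-strand polymerase, with 0.83 (SE 0.14, adjusted p = 0.00149), *Mcm8* with 0.83 (SE 0.16, adjusted p = 0.00528) and *Gins1*, a helicase cofactor, with 0.82 (SE 0.12, adjusted p = 0.000697). *Prim2*, a primase subunit, fell with IgG, anti-*Vegf* and dexamethasone relative to naïve, with -0.99 (SE 0.17, adjusted p = 0.000636) for IgG.

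Of 51 other mitosis genes, 1 rose with IgG, 15 with anti-*Vegf* and 32 with dexamethasone relative to naïve, and none fell. Against IgG 42 rose with dexamethasone and none fell (median 0.72), where 7.41% of all genes were called higher. *Zwilch*, which recruits checkpoint proteins to the kinetochore, rose by 0.77 (SE 0.14, adjusted p = 0.00058) with IgG, 1.27 (SE 0.14, adjusted p = 7.22e-06) with anti-*Vegf* and 1.48 (SE 0.14, adjusted p = 1.73e-06) with dexamethasone. The largest rises of dexamethasone over IgG were in *Mis18a*, which primes centromeres, with 1.13 (SE 0.16, adjusted p = 0.000739), the kinase *Melk* with 1.08 (SE 0.17, adjusted p = 0.00118), *Cenpk* with 0.94 (SE 0.16, adjusted p = 0.00158) and the condensin subunit *Ncapd2* with 0.94 (SE 0.10, adjusted p = 0.00012). Against anti-*Vegf* 5 rose and 1 fell with dexamethasone, where 4.63% of all genes were called higher and 2.50% lower. The centromeric histone *Cenpa* was the one that fell, with -0.57 (SE 0.13, adjusted p = 0.0137), and *Ncapd2* had 0.55 (SE 0.10, adjusted p = 0.00608).

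Of 38 regulators of the E2F, Rb, p53 and checkpoint pathways, 3 rose and 4 fell with IgG, 4 rose and 4 fell with anti-*Vegf*, and 6 rose and 1 fell with dexamethasone relative to naïve. *Myc*, a growth regulator, rose in all 3, by 1.56 (SE 0.17, adjusted p = 7.59e-06), 1.36 (SE 0.17, adjusted p = 2.29e-05) and 1.88 (SE 0.17, adjusted p = 1.17e-06) with IgG, anti-*Vegf* and dexamethasone. *Gadd45g*, a stress-induced brake, rose by 1.52 (SE 0.21, adjusted p = 8.09e-05), 1.33 (SE 0.21, adjusted p = 0.00023) and 1.66 (SE 0.21, adjusted p = 3.93e-05), whereas *Mycn* fell in all 3, by differences of -0.83, -0.64 and -0.90 (adjusted p = 0.0027, 0.0136 and 0.00164). The atypical repressor *E2f7* fell relative to naïve with IgG, -0.82 (SE 0.21, adjusted p = 0.00922), and anti-*Vegf*, -0.73 (SE 0.21, adjusted p = 0.0178), and was higher with dexamethasone than with IgG by 0.80 (SE 0.21, adjusted p = 0.0263). Against IgG, where 7.41% of all genes were called higher and 3.16% lower, dexamethasone raised 12 of the 38 and lowered 1. Among them were *Foxm1*, which drives mitotic genes, with 0.71 (SE 0.11, adjusted p = 0.00133), the checkpoint kinase *Chek1* with 0.86 (SE 0.17, adjusted p = 0.00498) and *E2f8* with 0.77 (SE 0.15, adjusted p = 0.00577). Against anti-*Vegf*, *Foxm1* was higher by 0.42 (SE 0.11, adjusted p = 0.0354), *Cdc25a*, a phosphatase of S phase entry, by 0.44 (SE 0.08, adjusted p = 0.00391), and *Gadd45a* was lower, with a difference of -0.64 (SE 0.13, adjusted p = 0.00862).

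Markers of other cells were called more often between naïve and sutured corneas than between treatments. Of 11 leukocyte markers 9 rose with each of IgG, anti-*Vegf* and dexamethasone relative to naïve, and their summed linear signal was 1097 to 1243 on naïve, 3115 to 4722 on IgG, 3545 to 4356 on anti-*Vegf* and 2715 to 5492 on dexamethasone arrays. None of the 11 was called between dexamethasone and IgG or between anti-*Vegf* and IgG in limma (2 and 0 at an unadjusted p under 0.05). Of 10 macrophage markers 8, 7 and 8 rose over naïve with IgG, anti-*Vegf* and dexamethasone, and between dexamethasone and IgG *Lyz2* rose (0.72) and *Cd68* fell (-0.86). The 5 measured neutrophil markers summed to 301 to 323 on naïve, 12315 to 22163 on IgG, 12543 to 16954 on anti-*Vegf* and 3872 to 27738 on dexamethasone arrays, none being called between treatments. Between dexamethasone and IgG their median difference was -0.50 (0.02 over all genes), and 4 of 5 lay below 0. In limma 2 were lower at an unadjusted p under 0.05 (smallest adjusted p = 0.0548). The 8 markers of basal and limbal epithelium summed to 51847 to 55664, 69068 to 76474, 65469 to 71889 and 68296 to 77196 in the same order of groups, and 1 of 8 (*Itga6*, 0.28) was called between dexamethasone and IgG. Relative to naïve, 3, 2 and 2 of the 8 were called higher with IgG, anti-*Vegf* and dexamethasone, and none lower. In each of these comparisons 5 had means above naïve and 3 below. *Krt14* read 12.36 to 12.97 on naïve and 14.13 to 14.55 on sutured arrays. *Krt5* read 14.58 to 14.68 and 14.44 to 14.61. The 6 markers of corneal endothelium summed to 11152 to 15114 on naïve and 6577 to 10359 on sutured arrays, with 3, 4 and 2 of 6 called lower with IgG, anti-*Vegf* and dexamethasone. Between dexamethasone and IgG their median difference was 0.42 (0.02 over all genes), with 3 of 6 higher and 1 lower at an unadjusted p under 0.05 and *Car12* called lower (-0.35). Between dexamethasone and anti-*Vegf* the median was 0.37, with *Col8a2* called higher (0.88) and *Car12* lower (-0.34). Of 11 T, NK and B cell markers *Cd3e* and *Cd3d* fell with dexamethasone relative to IgG, and all 11 summed to 453 to 542 and 541 to 587 on those arrays. Of 8 keratocyte markers 1 rose with each treatment and 1, 4 and 1 fell relative to naïve, and none was called between dexamethasone and IgG (median 0.09). Between dexamethasone and anti-*Vegf* their median was 0.54, 7 of 8 lay above 0, and *Col1a1* (0.70) and *Col1a2* (0.49) were called higher. The 9 measured vessel markers summed to 884 to 1039, 693 to 1107, 675 to 825 and 802 to 1056 from naïve to dexamethasone, and the 7 of differentiated epithelium to 90310 to 93320 on naïve and 76541 to 83804 on sutured arrays. Of the latter 7, 6, 5 and 6 had means below naïve with IgG, anti-*Vegf* and dexamethasone, none of them called. The only one called was *Clu*, which was higher than naïve by 3.86, 3.29 and 3.5. No marker stood at 0, which this scale does not reach. The part of these cell types in the cell cycle results was not tested.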

How the data were processed

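RNA of 16 rat corneas was hybridised to Affymetrix 3′ expression arrays, 4 arrays in each of 4 groups. The authors summarised the probes by RMA in Affymetrix Expression Console and deposited log2 values (versions not given in the sources used here). RMA normalizes all arrays to one distribution, so changes shared by most genes are removed. Of 31099 probe sets, 57 controls were set aside and 31042 tested; 20826 carry 1 gene symbol, 436 several and 9780 none. Groups came from the labels. limma 3.58.1 (R 4.3.3) fitted 1 mean per group on all 16 arrays (12 residual degrees of freedom), with Benjamini-Hochberg adjustment over probe sets, for 6 comparisons. A gene was read from its brightest probe set. Tables and figures were made with Python 3.11.15, pandas 2.3.3 and matplotlib 3.10.9, and the fit was tested on simulated data.

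All members were described, and those called were given on every array. Of the other pathway genes, named genes came from the 4 with the largest called changes in each list and comparison. Members and lists were chosen with earlier results of these data known. Alternatives were a mean-variance trend, array weights, the compared groups alone, cyclic loess, centring on 8 reference genes, removal of dim probe sets, averaging all probe sets of a gene, the fold limit, each array left out in turn and, chosen after seeing the data, the naïve arrays left out in pairs. The number of arrays limits the precision. The methods give 1 cornea per array, so p-values measure the spread between corneas.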

Additional observations from a re-analysis of the deposited data

Results flagged for a closer look

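In 6 of 180 sets of 4 arrays (45 genes in 4 groups), 1 array lay far from the other 3 relative to the range of the group, where chance gives about 1 in 20. On IgG array F22, *Cdk4* read 10.59 (the others 10.44 to 10.46), *Cdc25b* 7.61 (7.34 to 7.35) and *Plk1* 8.55 (8.26 to 8.28). On IgG array F17, *Mcm5* read 8.13 (8.44 to 8.50). Among anti-*Vegf* arrays, *Kif2c* read 7.81 on F1x (7.47 to 7.52) and *Aurka* 7.45 on F2 (7.98 to 8.00).

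The poly-A control probe sets, which belong to no comparison of genes, averaged a log2 signal of 7.08 on IgG and 6.88 on anti-*Vegf* arrays, above the range of 4.93 to 5.16 on naïve arrays. Their part in the results was not tested.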

How the results depend on the processing

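The number of members called kept within 1.5 times its value in all but 3 of the alternatives tried. Without a fold limit, 14 members instead of 5 were called between IgG and naïve, where 29.2% of all genes were called. With a fold limit of 1.5, 2 instead of 5 were called between dexamethasone and anti-*Vegf*, and without anti-*Vegf* F6 it was 3. Between dexamethasone and IgG a fold limit of 1.5 left 25 of 36. Leaving out 1 array gave 4 to 7 called members for IgG against naïve, 18 to 25 for anti-*Vegf* against naïve, 24 to 32 for dexamethasone against naïve, 0 for anti-*Vegf* against IgG, 27 to 37 for dexamethasone against IgG and 3 to 5 for dexamethasone against anti-*Vegf*. Over the calls of single members, 74 of 768 refits that left out 1 array lost the call, as did 29 of 672 under the other settings and 14 of 110 without a pair of naïve arrays (a setting chosen after the data were seen), and none changed direction. Members called in every refit that left out 1 array numbered 3 of 5, 17 of 20, 23 of 30, 26 of 36 and 3 of 5 for the 5 comparisons with calls. No paired analysis was made, because the methods give 1 cornea per array and no pairing of animals between groups. The causes of these changes were not tested.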
